A study of Mus musculus with 18 samples.

Results

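The thick filament genes examined here are the 10 genes Myh6, Myh7, Myh7b, Mybpc3, Myl2, Myl3, Myl4, Myl7, Mylk3 and Myom1. They were listed by name as thick filament genes, with earlier results of these data known and with no rule on measured values, and each was taken with its annotated GRCm38 span and 2000 bases on each side, called its window. They are 10 of the 21887 protein-coding genes in the gene table used, and 48 of the 152196 merged methylated regions of the series touch their windows. Of the gene and library pairs, 55.0% had a peak, against 48.0% over all protein-coding genes, and 66.5% of the peaks over these windows had a score (the authors' own value for each peak) under 70, against 46.6% of all peaks. A region inside Myl4, the gene of an atrial light chain, was the only member region with a peak in all 18 libraries, and the adjacent cardiac heavy chain genes Myh6 and Myh7 had no region shared by more than 5 libraries. A region beside Myl7 had a peak in the 3 libraries taken 10 min after infarction and in no other library. Mylk3, the gene of the cardiac myosin light chain kinase, had its highest group mean at 72 h, 3.69% of its window under peaks against 1.58% in sham, with groups that overlapped. Its unadjusted permutation p of 0.0330 over the 6 groups was 0.219 with the same number of top-scoring peaks taken from each library and 1.00 with a score of at least 70 required. No difference between groups at any of the 10 genes passed correction over all genes or all regions.

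The thick filament of the sarcomere is built from myosin. Each myosin molecule pairs heavy chains, which hold the motor and the rod, with essential and regulatory light chains that stiffen and tune the lever arm. Myosin-binding protein C sits along the filament and restrains the motors, a kinase phosphorylates the regulatory light chain, and M-band proteins such as myomesin hold neighbouring filaments in register. In the mouse heart the adult ventricle makes mainly alpha heavy chain (Myh6), the fetal and stressed ventricle makes more beta heavy chain (Myh7), and atria and ventricles use different light chains. DNA methylation at CpG sites over a gene's start is generally linked to low transcription, while methylation within gene bodies is common in transcribed genes.

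The series followed DNA methylation in heart muscle of 12-week-old male C57BL/6JR mice after myocardial infarction (MI), in which muscle dies for want of blood. For MI the left anterior descending coronary artery was tied off. Tissue was taken 10 min or 1 h later, or 6, 24 or 72 h later. Sham mice had the same operation with a suture passed and not tied. Each of the 6 groups held 3 mice, 1 library from each, so there were 18 libraries. All mice carried the same strain background and received sodium pentobarbital for the operation and isoflurane before death. The design text gives the pentobarbital dose as 50 mg/kg, and the sample labels carry values from 50 to 63 mg/kg. The tissue label is myocardial and the cell type label cardiomyocytes, and no step that isolates cells is described. The peak lists hold no expression values, so the labelled cell type was not checked against marker genes here. A shift in the mix of cells and a shift of methylation within a cell type cannot be told apart in such tissue.

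Methylated DNA immunoprecipitation sequencing (MeDIP-seq) was used: sheared DNA is captured with an antibody to 5-methylcytosine and sequenced, and peaks mark where captured fragments pile up. Peaks reflect methylated CpG density and capture together, and they do not give the percentage of methylated molecules. The authors called peaks on each library separately, and the shortest list held 34255 peaks (6 h replicate 3), the longest 60653 (72 h replicate 2). Each peak has a score from the authors, 50.0 or higher in every list, on a scale that is not given in the sources used here. It is used only to describe and filter peaks, with the peak's percentile in its own list where libraries are set side by side. Read depth is unknown from these lists, so no counting error can be given, and a missing peak means only that none passed the authors' threshold. Peaks of all libraries that overlapped by at least 1 base were merged into regions. The regions of each gene are numbered along the chromosome, and the percentage of a gene's window that lies under peaks in a library is called its covered percentage.

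The sequences at the centre of these genes are shown first, because the heavy chain genes carry their own microRNAs and because the start sites could be read against the peaks. Mir208a lies within Myh6, Mir208b within Myh7 and Mir499 within Myh7b, the heart microRNAs known for tuning which myosin heavy chain is made. Their mature strands from RefSeq are given 5′ to 3′, with the seed (bases 2 to 8) in capitals.
miR-208a-3p: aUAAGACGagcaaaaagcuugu
miR-208b-3p: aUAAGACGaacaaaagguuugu
miR-499-5p: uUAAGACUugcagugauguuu
The seeds of miR-208a-3p and miR-208b-3p are the same, UAAGACG, and that of miR-499-5p, UAAGACU, has another last base. The Mir208a hairpin at chr14:54949060-54949142 lay under no peak in any library, and the nearest peak, in sham replicate 2, was 41 bases away. The Mir208b hairpin at chr14:54975700-54975776 also lay under no peak, with the nearest 3823 bases away in 6 h replicate 2. The Mir499 hairpin at chr2:155622880-155622958 was touched by a peak in 3 of 18 libraries, namely sham replicate 2, 10 min replicate 3 and 1 h replicate 1. The 3 libraries come from 3 different groups.

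RefSeq (GRCm38.p6) promoter windows of 300 bases, 250 before to 50 after an annotated start, were matched for all 10 genes and gave 13 start sites. Those of the adjacent heavy chain genes and of the atrial light chains are printed 5′ to 3′ on the gene's strand, with each CpG in capitals.
Myh6, chr14:54966558-54966857, minus strand: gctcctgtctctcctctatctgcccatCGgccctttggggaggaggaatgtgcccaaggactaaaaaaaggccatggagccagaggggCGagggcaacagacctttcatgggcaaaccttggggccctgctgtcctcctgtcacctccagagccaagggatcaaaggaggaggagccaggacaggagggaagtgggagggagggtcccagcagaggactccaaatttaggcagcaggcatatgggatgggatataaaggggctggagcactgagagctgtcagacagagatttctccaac
Myh7, chr14:54994577-54994876, minus strand: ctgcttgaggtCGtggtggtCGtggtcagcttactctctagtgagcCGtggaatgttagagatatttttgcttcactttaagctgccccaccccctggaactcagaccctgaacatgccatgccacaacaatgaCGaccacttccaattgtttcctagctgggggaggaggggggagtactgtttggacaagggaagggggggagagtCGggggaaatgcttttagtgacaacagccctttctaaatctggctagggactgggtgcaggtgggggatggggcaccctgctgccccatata
Myl4, chr11:104550413-104550712, plus strand: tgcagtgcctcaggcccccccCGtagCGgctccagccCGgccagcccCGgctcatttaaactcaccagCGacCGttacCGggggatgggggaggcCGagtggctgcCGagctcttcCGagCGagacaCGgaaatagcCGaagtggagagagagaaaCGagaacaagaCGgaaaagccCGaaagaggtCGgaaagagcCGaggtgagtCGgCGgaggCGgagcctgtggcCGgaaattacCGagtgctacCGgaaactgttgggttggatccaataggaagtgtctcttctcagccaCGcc
Myl7, chr11:5898733-5899032, minus strand: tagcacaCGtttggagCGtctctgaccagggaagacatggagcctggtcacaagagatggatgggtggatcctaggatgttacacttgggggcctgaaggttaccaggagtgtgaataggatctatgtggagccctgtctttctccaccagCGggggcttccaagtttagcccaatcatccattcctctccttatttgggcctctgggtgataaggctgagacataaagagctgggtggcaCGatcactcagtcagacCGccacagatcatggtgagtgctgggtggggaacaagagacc
The Myh6 window holds 2 CpGs, the Myh7 window 5, the Myl7 window 5 and the Myl4 window 25. Over the 13 member windows the median was 3 CpGs, against 7 over all 32817 promoter windows of the table, and 18.4% of all windows hold at least as many as Myl4's. The only member window touched by a peak in any library was that of Myl7, in 72 h replicate 2, and 8.92% of all windows were touched in at least 1 library. Myl4's CpG-rich start window was touched in 0 of 18 libraries, although the gene holds the most widely shared member region further along. The gene spans used here can begin before these starts, as for Myh6, Myl4, Mylk3 and Myom1, and positions within a gene are counted from the edge of its span. Motifs were searched on both strands. Of the 4 printed windows, TATAAA is in that of Myh6, the M-CAT element, CATTCC, is in those of Myh6, Myh7 and Myl7, and the CArG box, which the serum response factor binds, is in that of Myl7. Of the windows not printed, TATAAA is also in a Myl2 window, CATTCC in the Myl3 window and a Mylk3 window, and the CArG box in the Myl3 and Myom1 windows. Over all windows the shares are 13.6% for TATAAA, 14.7% for CATTCC and 1.63% for the CArG box. These matches describe the letters only.

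Across the 48 member regions, 16 (33.3%) had a peak in 1 library alone, against 29.2% of all regions, and 8 (16.7%) had a peak in at least 9 libraries, against 25.2%. The 185 member peaks had a median score of 63.92, against 72.11 for all 862255 peaks, and 66.5% of them scored under 70, against 46.6%. All regions and all peaks include those outside gene windows, and those at gene windows alone were not compared. Member peaks per library ran from 3 (10 min replicate 2) to 21 (72 h replicate 2, the longest list), with 17 in sham replicate 2, whose list of 60130 peaks was the longest of the sham group. No pair of libraries shared more than 3 peaks with identical ends over the whole genome, so no library was a copy of another. The map of peaks by region and library shows how few rows are filled across.

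**Figure D1:**
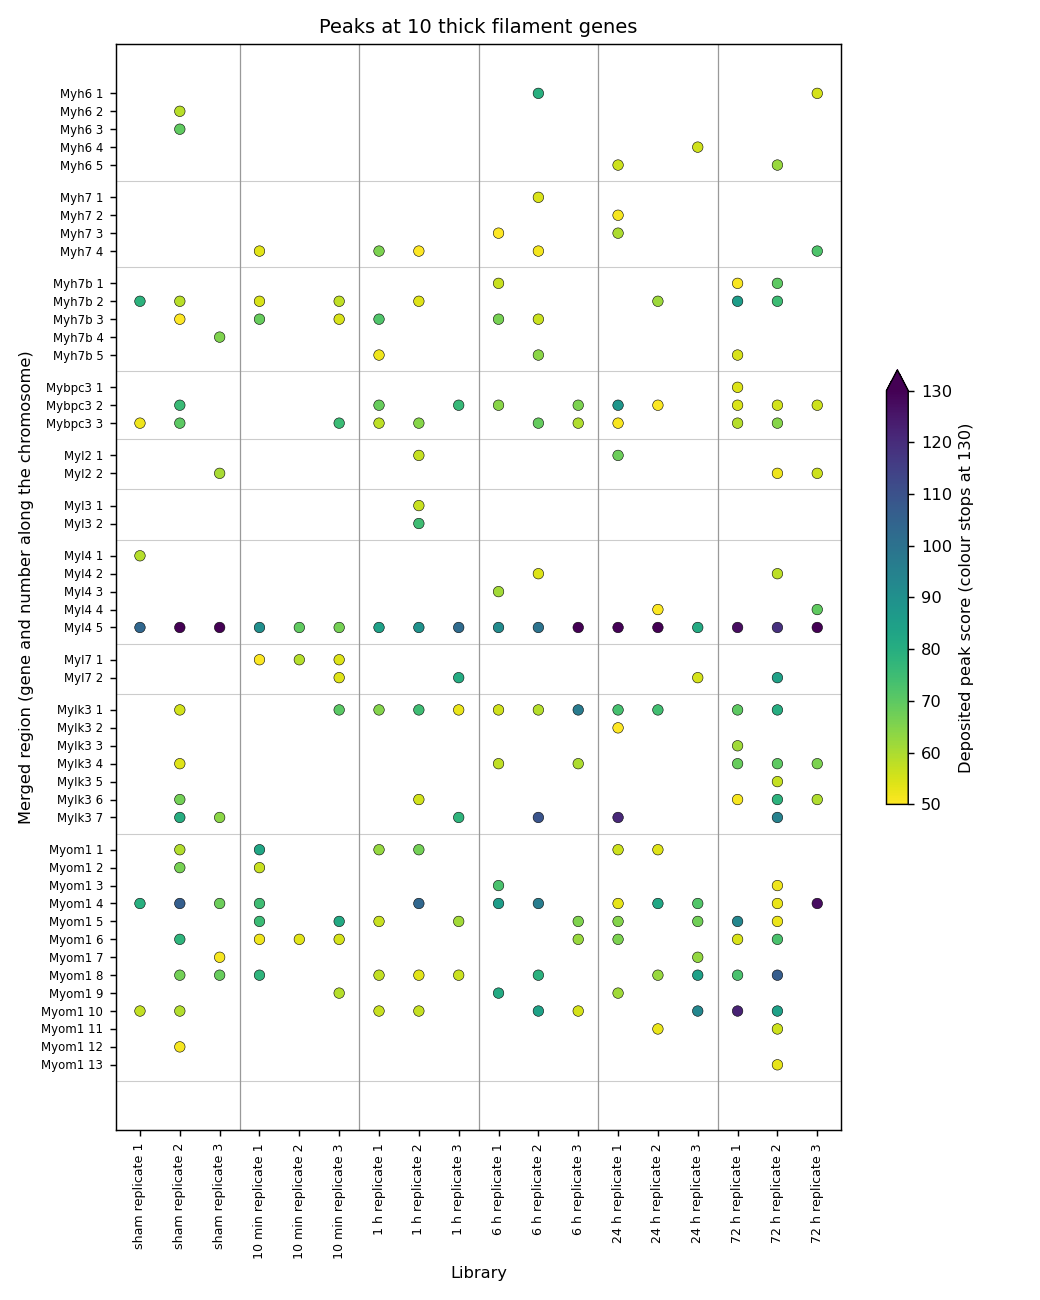
Each row is a merged region at a thick filament gene, numbered along the chromosome, and each column is a library. A dot marks a peak and its colour the score from the authors' list, with the colour scale stopped at 130; of the peaks in region 1 of Mylk3, only that of 1 h replicate 1 reaches the gene's window. Region 5 of Myl4 is the only row filled in all 18 libraries.

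Myh6, encoding the alpha heavy chain, spans chr14:54941921-54968017, and Myh7, encoding the beta heavy chain, spans chr14:54970684-54994626, both on the minus strand and next to each other. Together they held 9 regions, and 16 peaks over 18 libraries. Myh6 had a peak in 6 libraries, and its covered percentage was 4.23 in sham replicate 2, 4.48 in 6 h replicate 2, 4.47 and 3.34 in 24 h replicates 1 and 3, and 5.62 and 3.80 in 72 h replicates 2 and 3, with 0 in the other 12. Every group with a peak at Myh6 also had a library without one, so the groups overlapped. Myh7 had a peak in 7 libraries, at 3.91 in 10 min replicate 1, 4.62 and 2.91 in 1 h replicates 1 and 2, 3.94 and 6.69 in 6 h replicates 1 and 2, 5.07 in 24 h replicate 1 and 4.87 in 72 h replicate 3. The 3 sham libraries were at 0, as was at least 1 library of each MI group, so no MI group stood clear of sham.

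The region of the pair seen most often, region 4 of Myh7 at chr14:54991244-54992605, had a peak in 5 libraries and in 0 of 3 sham libraries. It lies 2702 bases (midpoint) into the gene, where the noncoding gene Gm31251 is also annotated. Its scores were 53.68 in 10 min replicate 1, 65.83 and 50.29 in 1 h replicates 1 and 2, 51.47 in 6 h replicate 2 and 72.38 in 72 h replicate 3. Its exact p over the 6 groups was 0.830. Region 1 of Myh7, which overlaps the heart-specific noncoding gene Mhrt, had a peak in 6 h replicate 2 alone.

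Averaged over the 18 libraries, 1.60% ± 1.82 (SD) of the joined Myh6 and Myh7 windows lay under peaks. The skeletal muscle heavy chain genes Myh1, Myh2, Myh3, Myh4, Myh8 and Myh13, relatives that the heart scarcely uses, were at 5.15% ± 1.23 and higher than the cardiac pair in 17 of 18 libraries. The exception was 72 h replicate 3, at 4.28% for the skeletal genes and 4.32% for the cardiac pair. The mean within-library difference was 3.54 percentage points ± 2.03 (SD, n = 18). No p is given for it, since both sets of genes were chosen with earlier results known, and the 2 sets lie on different chromosomes whose CpG content was not compared here. The skeletal genes were not alike. Their means were 10.4% for Myh4, 7.56% for Myh2, 7.44% for Myh1, 4.47% for Myh3, 2.24% for Myh13 and 1.79% for Myh8. Those of the cardiac pair were 1.78% for Myh7 and 1.44% for Myh6.

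**Figure D2:**
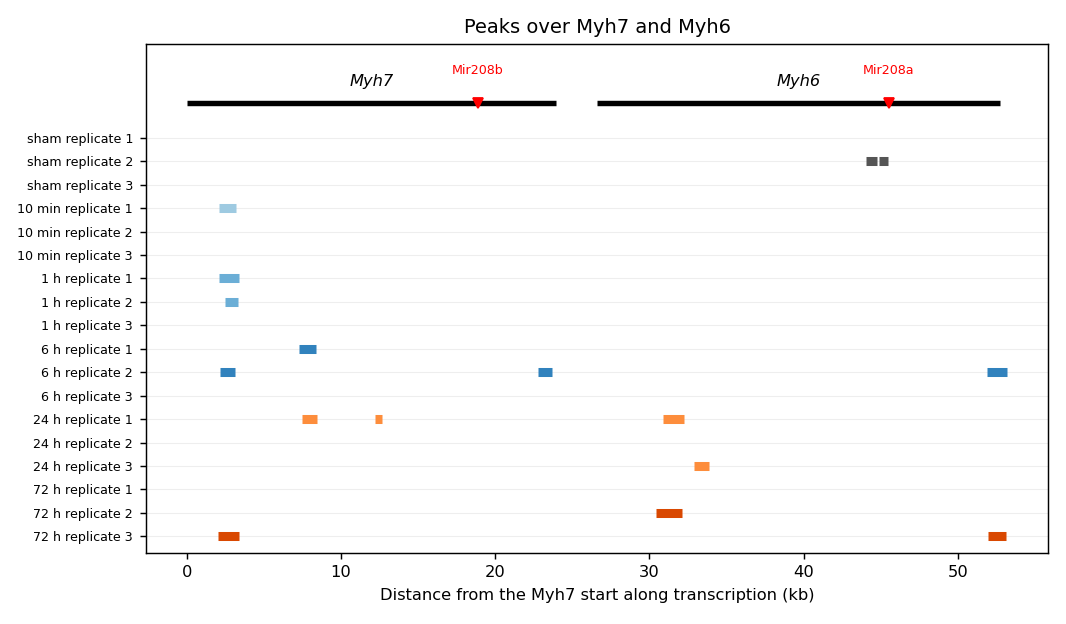
Peaks of each library over Myh7 and Myh6, drawn along the direction of transcription with distance from the Myh7 start in kb; the black bars are the genes and the triangles the hairpins of Mir208b and Mir208a. Each coloured block is a peak, and no position is shared by more than 5 of the 18 libraries.

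Myh7b, at chr2:155611243-155634307 on the plus strand, encodes a slow heavy chain and hosts Mir499. It had the highest mean covered percentage of the 10 genes, 4.37% ± 3.56 (SD, n = 18), from 21 peaks in 12 libraries. By library it was 5.24, 7.95 and 3.51 in sham, 7.12, 0 and 7.67 at 10 min, and 6.46, 5.04 and 0 in the 1 h group. The 6 h libraries gave 8.48, 4.98 and 0, the 24 h libraries 0, 4.08 and 0, and the 72 h libraries 7.94, 10.2 and 0. Each MI group thus held a library without a peak, while the 3 sham libraries each had at least 1. The only peak of sham replicate 3, region 4, begins 307 bases past the end of Myh7b and overlaps Trpc4ap, so it may not belong to Myh7b. The 24 h mean was lower than that of sham (1.36% against 5.57%), with overlapping ranges and an exact permutation p of 0.200. Region 2, at chr2:155620334-155621955, was its most frequent region with 8 libraries, and region 3, which overlaps part of the Mir499 hairpin, had 6, of which 3 touched the hairpin.

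Mybpc3, encoding cardiac myosin-binding protein C, spans chr2:91118114-91136516 on the plus strand and was covered at 3.39% ± 2.67 (SD, n = 18). Region 2, at chr2:91130159-91131734 inside the gene and 69.7% of the way along it, had a peak in 10 libraries. Its scores at 72 h were 54.44, 55.44 and 56.19, and in the sham group only replicate 2 had a peak, at 75.69. At the other times it had peaks in 0 of 3 libraries at 10 min and 2 of 3 in each of the 1 h, 6 h and 24 h groups, scoring from 50.57 to 88.27, and its exact p over the 6 groups was 0.384. Region 3, at chr2:91137816-91139403, also had a peak in 10 libraries, from 50.78 to 75.37. It begins 1300 bases past the end of Mybpc3, within Madd, so it may not belong to Mybpc3. The covered percentage of Mybpc3 was 2.77, 4.93 and 0 in sham and 8.38, 7.64 and 3.32 at 72 h. These ranges overlapped, the 72 h mean was 3.88 percentage points higher, and the exact permutation p was 0.200.

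The ventricular light chains had few peaks. Myl2, the ventricular regulatory light chain, spans chr5:122092724-122113473 and was covered in 5 libraries, at 4.22 in sham replicate 3, 3.39 in 1 h replicate 2, 3.43 in 24 h replicate 1, and 5.34 and 6.37 in 72 h replicates 2 and 3. The other 13 libraries, 72 h replicate 1 among them, were at 0. Its region 2, which also overlaps Ccdc63, held the 72 h peaks, with scores of 52.16 and 56.07, and the sham peak at 60.38. Myl3, the ventricular essential light chain, spans chr9:110763678-110769802 and had peaks only in 1 h replicate 2. They scored 56.57, at 431 bases before the gene, and 74.69 inside it. Myl3 was not tested, because at least 3 libraries with a peak were required.

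Myl4 encodes the atrial essential light chain, which the embryonic ventricle also makes, and spans chr11:104546017-104587215 on the plus strand. Its region 5, at chr11:104583011-104585323, had a peak in 18 of 18 libraries, which holds for 5.09% of all regions and for no other member region. The region lies inside the gene, ends 1892 bases before the gene does, and the stretch common to all 18 peaks is chr11:104583546-104584869 (1324 bases). Individual peaks were 1332 to 2244 bases wide. Exon and intron placement was not analysed here.

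The scores at this Myl4 region were 103.47, 162.89 and 185.45 in sham, 90.49, 69.4 and 66.78 at 10 min, and 84.41, 89.65 and 102.31 in the 1 h group. The 6 h libraries scored 91.85, 99.56 and 147.21, the 24 h libraries 129.53, 137.8 and 81.33, and the 72 h libraries 127.42, 119.06 and 167.9. The highest value is in a sham library and the lowest in a 10 min library. Because the lists were called separately, the percentile of each peak in its own list is given too. It ran from 80.0 to 98.4 in sham, from 42.8 to 71.2 at 10 min and from 67.2 to 80.3 in the 1 h group. For the 6 h libraries it ran from 74.4 to 96.5, for the 24 h libraries from 65.8 to 92.6 and for the 72 h libraries from 84.2 to 97.5. The list lengths, which set a percentile, ran from 37084 to 52259 peaks at 10 min and from 44328 to 60130 in sham. Scores and percentiles from separately called lists of unequal length are given as a description only. No difference between groups in them was tested, and other regions with a peak in all 18 libraries were not compared. The covered percentage of Myl4 was the steadiest of the 10 genes, at 4.33% ± 0.908 (SD, n = 18), and its 72 h and sham means were 4.86% and 3.87% with overlapping ranges (exact permutation p = 0.40).

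Myl7 encodes the atrial regulatory light chain and spans only chr11:5896637-5898782, on the minus strand. Its region 1, at chr11:5893671-5894870, had a peak in 3 of 3 libraries at 10 min, with scores of 50.34, 58.94 and 54.32, and in 0 of the other 15. It was the only member region called for any time point, where called means a peak in every library of a time point and in no sham library (gained) or the reverse (lost). By this rule 1 of 48 member regions was gained at 10 min, against 0.216% of all regions. The region begins 1767 bases past the 3′ end of Myl7 and overlaps no annotated gene. Its exact p over the 6 groups was 0.00735, the smallest that a peak confined to 1 whole group can give, and 1.00 after Benjamini-Hochberg adjustment over all 152196 regions. Its peaks were close to the lowest score in the lists, and with a score of at least 70 required or with lists of equal length 0 member regions were gained at 10 min. With no flank around the genes the count was also 0, because the region lies outside Myl7.

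Region 2 of Myl7, at chr11:5898966-5900044, reaches the printed start window only with the peak of 72 h replicate 2 and had a peak in 4 libraries of 4 groups. The scores were 53.94 in 10 min replicate 3, 80.65 in 1 h replicate 3, 55.02 in 24 h replicate 3 and 84.22 in 72 h replicate 2. The covered percentage of Myl7 at 10 min was 2.33, 2.65 and 18.4, against 0 in the 3 sham libraries, and 10 min replicate 3 is high because both regions had a peak there. These groups did not overlap, with an exact permutation p of 0.1, the smallest 3 against 3 libraries can give, and 1.00 after adjustment. Across all tested genes 2.25% had every 10 min library above every sham library, and Myl7 was 1 of 9 tested members. Without 10 min replicate 3 the difference in means was 2.49 percentage points in place of 7.80. It was 0 with no flank or with a score of at least 70 required, and 0.884 with lists of equal length. In 10 min replicates 1 and 2 the covered bases come only from region 1, at the outer edge of the flank.

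Mylk3 encodes the cardiac myosin light chain kinase, which phosphorylates Myl2, and spans chr8:85324928-85386340 on the minus strand. Its covered percentage was 0, 3.76 and 0.966 in sham, 0 in the 3 libraries at 10 min, and 0.00611, 0.937 and 1.56 in the 1 h group. The 6 h libraries gave 1.08, 0.842 and 1.75, the 24 h libraries 2.28, 0 and 0, and the 72 h libraries 3.14, 5.02 and 2.90. The 72 h libraries were above every library of the other MI groups, and they overlapped the sham group through sham replicate 2. How many other genes had their 72 h libraries above the other MI groups was not counted. The 72 h and sham means were 3.69% and 1.58%, a difference of 2.11 percentage points with an exact permutation p of 0.300.

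The share of the variance of Mylk3 that lay between the 6 groups was 0.607 (permutation p = 0.0330, 0.766 after adjustment over 14581 tested genes). Of the 9 members tested it was the only one with an unadjusted permutation p under 0.05, which 6.26% of all tested genes also reached. The other 8 had permutation p from 0.135 (Mybpc3) to 0.972 (Myom1). The longest lists were those of 72 h replicate 2 (60653 peaks), sham replicate 2 (60130) and 72 h replicate 1 (58992), and these were the 3 libraries with the highest Mylk3 coverage. With the same number of top-scoring peaks taken from each library the share was 0.410 and the permutation p 0.219, and with a score of at least 70 required they were 0.127 and 1.00. Leaving out 72 h replicate 2 gave a permutation p of 0.140, leaving out 72 h replicate 1 gave 0.0554, leaving out any 10 min library gave 0.0576, and leaving out sham replicate 2 gave 0.00571.

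Regions 4 and 6 of Mylk3 had a peak in each of the 3 libraries at 72 h. They held all covered bases of 72 h replicate 3, while replicate 1 also had a peak in region 3 and replicate 2 also had peaks in regions 5 and 7. Region 4, at chr8:85348691-85350014, had scores of 68.69, 69.82 and 65.84 at 72 h, 57.74 and 59.96 in 6 h replicates 1 and 3, and 54.0 in sham replicate 2. Region 6, at chr8:85378217-85379391, had scores of 51.13, 78.49 and 59.53 at 72 h, 55.56 in 1 h replicate 2 and 66.88 in sham replicate 2. Neither region had a peak at 10 min or 24 h. Their exact p over the 6 groups were 0.0590 and 0.0735. For regions 4 and 6 of Mylk3 and region 2 of Mybpc3, each with a peak in 3 of 3 libraries at 72 h, sham replicate 2 was the only sham library with a peak. Without it these 3 of 48 regions counted as gained at 72 h, which follows from the way they were picked. Over all regions 1.77% were gained without it, and 0 of 48 member regions were lost, against 1.04%. With all libraries, 0 of 48 were gained at 72 h, against 0.719% of all regions. Without sham replicate 1 or without sham replicate 3, 0 member regions were called at 72 h.

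Region 1 of Mylk3, at chr8:85321576-85322931, had a peak in 12 libraries with a median score of 70.17, yet only the peak of 1 h replicate 1 reached the window of the gene. The region begins 1997 bases past the 3′ end of Mylk3 and runs away from the gene. Region 7, at chr8:85383153-85384178, lies inside the gene span but before both RefSeq start windows of Mylk3, and had the highest Mylk3 score, 121.12 in 24 h replicate 1. It had a peak in 6 libraries of 5 groups.

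**Figure D3:**
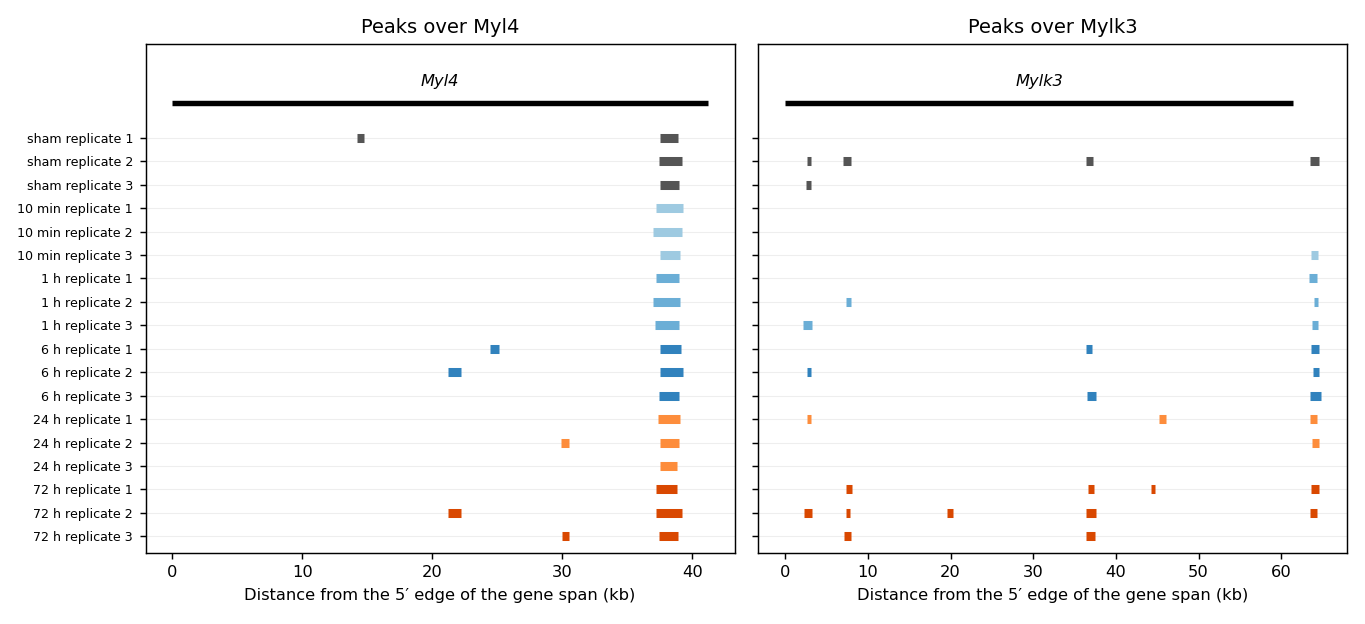
Peaks of each library over Myl4 and Mylk3, with distance in kb along transcription from the 5′ edge of the gene span, which lies before the RefSeq start windows of both genes; black bars are the genes and coloured blocks the peaks. The Myl4 peaks line up in 18 of 18 libraries near the end of the gene, and Mylk3 has peaks at 2 inner positions in all 3 libraries at 72 h.

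Myom1 encodes myomesin 1, the M-band protein that links neighbouring thick filaments, and spans chr17:71003332-71126856. It is the longest of the 10 genes and held 13 regions and 68 peaks, with at least 1 peak in every library. Its covered percentage was 2.55% ± 1.33 (SD, n = 18), from 0.920 in 72 h replicate 3 to 5.73 in 72 h replicate 2, so the 72 h libraries held both ends of the range. Only 0.0772 of its variance lay between groups (permutation p = 0.972). Of its regions, region 4 (chr17:71052011-71053487) had a peak in 12 libraries with scores from 52.67 to 127.22, region 8 (chr17:71081825-71083228) in 11, and regions 5 (chr17:71056388-71057524) and 10 (chr17:71097207-71098716) in 9 each. Region 4 had a peak in the 3 sham and the 3 libraries at 24 h. Region 8 had one in the 3 libraries at 1 h. Region 5 had none in sham, and region 10 none at 10 min. Over the 6 groups the exact p of these 4 regions ran from 0.568 to 0.863.

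Ordered by mean covered percentage, Myh7b (4.37) and Myl4 (4.33) led, followed by Mybpc3 (3.39), Myl7 (3.00), Myom1 (2.55), Myh7 (1.78), Myh6 (1.44), Mylk3 (1.35), Myl2 (1.26) and Myl3 (0.706). Neighbours in this order differed by less than the larger of their SDs over libraries. Over all 21887 protein-coding genes the median was 1.56, with quartiles of 0.0599 and 3.76. The plot of covered percentages by gene shows that only Myl4 and Myom1 were above 0 in every library.

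**Figure D4:**
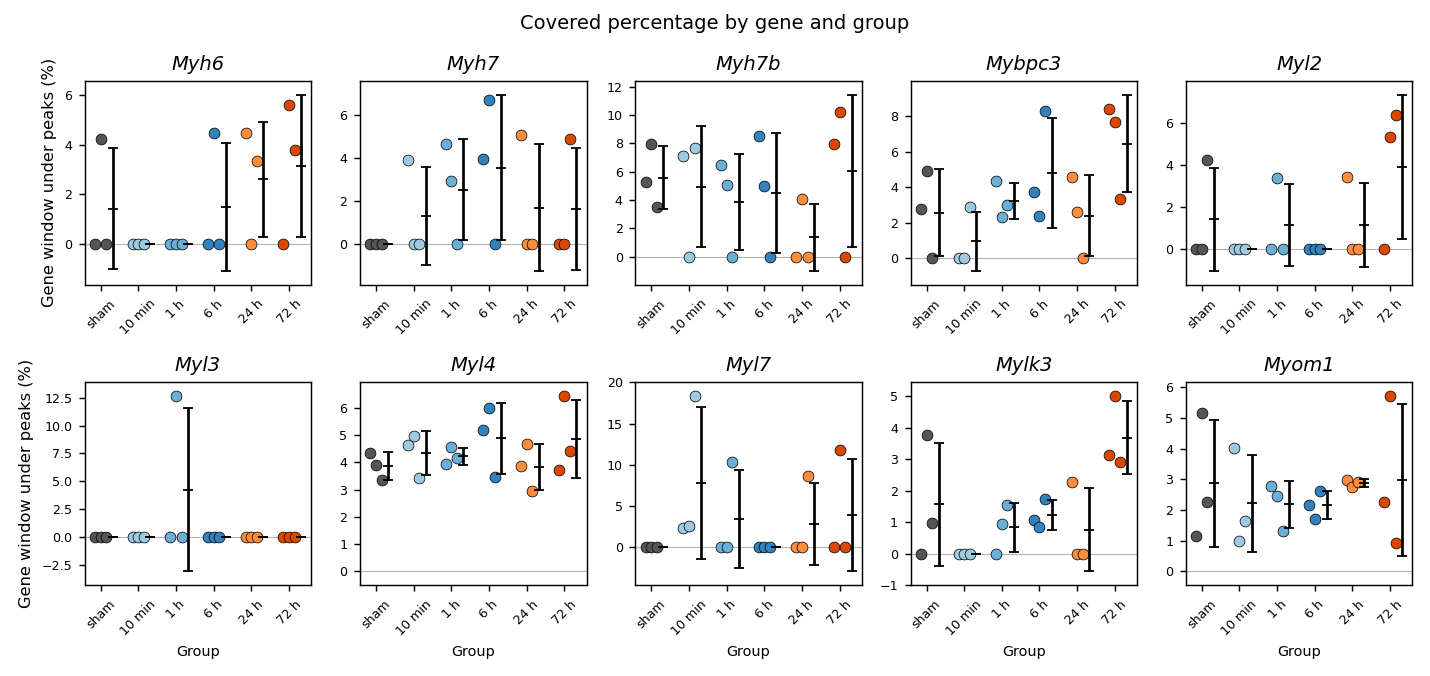
Covered percentage of each gene's window (vertical axes, each on its own scale) by group; a point is a library, and the bar beside each group is its mean and SD (n = 3), which can reach below 0 although no value does. Mylk3 is highest at 72 h, from 2.90 to 5.02, beside a sham group that reaches 3.76, and Myl7 is above sham at 10 min.

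For the joined windows of the 10 genes, covered percentages were 1.41, 3.97 and 1.82 in sham, 2.68, 0.949 and 1.94 at 10 min, and 2.42, 2.75 and 1.53 in the 1 h group. The 6 h libraries gave 2.60, 2.73 and 2.05, the 24 h libraries 3.02, 1.89 and 1.70, and the 72 h libraries 2.75, 5.61 and 2.56. The sham mean was 2.40% ± 1.38 and the 72 h mean 3.64% ± 1.71 (SD, n = 3 each), while the other group means lay between 1.86% and 2.46%. All groups overlapped sham. Over all protein-coding genes the means were 2.40% ± 0.380 in sham and 2.59% ± 0.237 at 72 h. Without 72 h replicate 2 the 72 h mean of the 10 genes exceeded that of sham by 0.253 percentage points in place of 1.24, and without sham replicate 2 by 2.03.

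**Figure D5:**
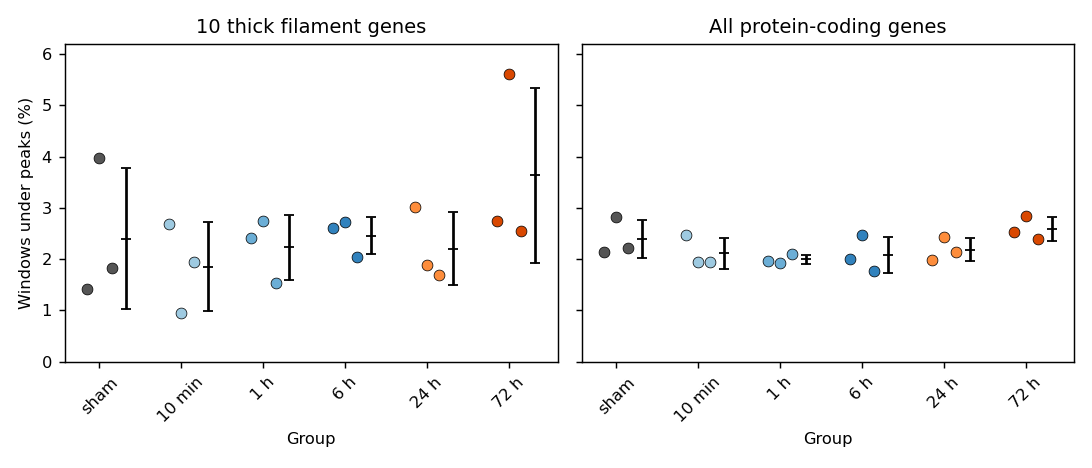
Percentage of the joined windows under peaks, for the 10 thick filament genes (left) and all protein-coding genes (right); a point is a library and the bar beside each group is its mean and SD (n = 3). The thick filament value of 72 h replicate 2, 5.61, stands above the other 17 libraries.

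Each time point was compared with the same 3 sham libraries, so the comparisons share their controls. Beyond the Myl7 region, 0 of 48 member regions were gained in the 1 h group (0.225% of all regions), the 6 h group (0.201%) or the 24 h group (0.393%). None was lost in the 10 min group (0.624% of all regions), the 1 h group (0.553%), the 6 h group (0.706%), the 24 h group (0.524%) or the 72 h group (0.397%). Over the pooled 15 MI libraries, gained meant a peak in 12 or more of them and in no sham library, which held for 0 member regions and 0.0375% of all. Lost meant a peak in 3 or fewer of them and in each sham library, which held for 0 member regions and 0.252% of all. Over the 6 groups, 1 of 48 regions had an exact p under 0.05, against 1.03% of all, and 0 of 152196 regions passed adjustment. The smallest exact p this test can give is 0.000411, which leaves little room to pass adjustment over so many regions.

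For covered percentages, no tested member other than Myl7 at 10 min had all libraries of a time point on 1 side of sham. Among all tested genes 1.63% were above sham in the 1 h group, 2.21% in the 6 h group, 2.63% in the 24 h group and 5.64% in the 72 h group. Below sham were 5.25% in the 10 min group, 7.08% in the 1 h group, 5.40% in the 6 h group, 5.17% in the 24 h group and 2.96% in the 72 h group. For the 15 MI against the 3 sham libraries, 0 of 9 members had an exact permutation p under 0.05, against 4.77% of tested genes, and the smallest member value was 0.286, for Myh7 (2.13% against 0%). In no comparison did any of the 14581 tested genes pass adjustment, and groups of 3 mice leave little room for it: the smallest exact permutation p is 0.1 for 3 against 3 and 0.00123 for 15 against 3.

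In a list of 20 other sarcomere genes, from the thin filament to the Z-disc and titin, the median of the mean covered percentages was 2.41, against 2.16 for the 10 thick filament genes and 1.56 for all genes. Its highest members were Mypn, a Z-disc protein gene, at 4.85, Actn2 (alpha-actinin) at 4.67 and Ttn (titin) at 4.63. Of its 18 tested genes, 3 had an unadjusted permutation p under 0.05 over the 6 groups against 6.26% of all tested genes, and 0 passed adjustment. They were Tnnt2 at 0.00530, Ttn at 0.00833 and Csrp3 at 0.0223, and Tnnt2 and Csrp3 are named after their values were seen. In a list of 20 skeletal, smooth muscle and non-muscle relatives of the thick filament genes the median was 2.02, with Myh4 at 10.4, Myh2 at 7.56 and Myh1 at 7.44 highest. Of its 17 tested genes 0 had a permutation p under 0.05. For joined windows the mean over the 18 libraries was 3.31% ± 0.606 (SD) for these relatives. It was 3.12% ± 0.806 for the other sarcomere genes and 2.47% ± 1.05 for the 10 genes, so the order of the lists depends on the measure.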

How the data were processed

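Each of the 18 libraries had a deposited list of peaks with 5 columns. Reads were aligned with Bowtie2 to mm10 and peaks called with MACS2, per the submitters' processing notes; options, thresholds and any input control are not given in the sources used here. The deposited score of each peak is the authors' own value and was not rescaled. Gene positions, start windows and microRNAs came from the RefSeq tables of GRCm38.p6, the same build, and all 10 symbols matched.

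Peaks were merged into regions where they overlapped by at least 1 base. Peak presence per region was tested over the 6 groups with an exact Fisher-Freeman-Halton test. Covered bases per gene were tested for the 14581 protein-coding genes with a peak in at least 3 libraries, by a permutation test with 100000 relabelings over the 6 groups and by two-sided exact permutation tests against sham. Benjamini-Hochberg adjustment covered all regions or all tested genes. The methods were tested on simulated data. Replicates are separate mice per the design text. No batch is named in the labels.

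All 10 genes were named, with their regions that had a peak in at least 9 libraries or were called. Up to 3 genes of each of the other lists were named by highest covered percentage. Other regions described fall outside this rule and were picked with their values known. They include region 4 of Myh7, regions 2 and 3 of Myh7b, region 2 of Myl7 and regions 4, 6 and 7 of Mylk3. Values for Myh3, Myh8, Myh13, Tnnt2 and Csrp3 also fall outside it. The genes, lists and tests were chosen with earlier results of these data known. Alternatives were a score of at least 70, lists of equal length (34255 peaks), flanks of 0 and 5000 bases, a peak over at least 50% of a region, the replicate number as a block, leaving out each library, and leaving out the libraries with the longest sham and 72 h lists. Python 3.11.15, numpy 2.4.6, pandas 2.3.3, scipy 1.17.1 and matplotlib 3.10.9 were used.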

Additional observations from a re-analysis of the deposited data

Results flagged for a closer look

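Mylk3 lay on opposite sides of the sham mean at different times. All 3 libraries at 72 h (3.14, 5.02 and 2.90% covered) were above the sham mean of 1.58%, and all 3 at 10 min (0%) and all 3 at 1 h (0.00611, 0.937 and 1.56%) were below it. The 72 h mean exceeded the 10 min mean by 3.69 percentage points and the 1 h mean by 2.85. These differences between time points were not tested, and both are measured against the same 3 sham libraries, which ranged from 0 to 3.76%. Sham replicate 2 holds the highest of these, no time point was separate from sham, and the exact permutation p against sham was 0.300 at 72 h, 0.40 at 10 min and 0.70 for 1 h.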

How the results depend on the processing

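Of 638 values recomputed under the alternatives, 565 were labelled the same. For a test this meant the same side of 0.05, for a count an equal count, and for a covered share a move within 1 SD. Another 62 counts or covered shares moved further, and 8 tests lost and 3 gained an unadjusted p under 0.05. A test of 3 against 3 libraries cannot go under 0.1, so it kept its side whatever its value. Myl7 at 10 min minus sham, for example, fell from 7.80 to 0 percentage points under a score of at least 70. Counts and shares of variance cannot be negative, so their sign could not change. Differences in covered share that were small beside their SD changed sign. Under a score of at least 70, under lists of equal length and with no flank, the member regions gained at 10 min numbered 0 and those with an exact p under 0.05 over the 6 groups numbered 0. The genes with a permutation p under 0.05 numbered 0 under a score of at least 70. With lists of equal length, Mylk3 was replaced by Mybpc3 (share 0.572, permutation p = 0.0282), and the 6 h covered share of the 10 genes exceeded sham by 0.683 percentage points in place of 0.0546. With 5000 bases on each side there was 1 region at 24 h and there were 2 at 72 h, 3 regions had an exact p under 0.05, 2 gene and time pairs did not overlap sham, and the call moved from Mylk3 (permutation p = 0.134) to Myl7 (0.0133). For these settings the cause was not tested.

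Leaving out 1 library gave 1 to 2 regions called at 10 min, 0 to 2 at 1 h, 0 to 1 at 6 h, 0 to 1 at 24 h and 0 to 3 at 72 h, and 1 to 3 regions with an exact p under 0.05. The higher counts partly follow from the construction, since a call then needs 2 libraries of a group in place of 3. At 10 min the count was 2 without any of the 3 sham libraries or 10 min replicates 1 or 2. Leaving out 1 h replicate 2 gave 2 at 1 h, and leaving out 1 h replicate 3 or sham replicate 2 gave 1. At 6 h it was 1 without sham replicate 2 or 3, at 24 h 1 without 24 h replicate 2, and at 72 h 3 without sham replicate 2 and 2 without 72 h replicate 3. Gene and time pairs apart from sham ran from 1 to 4, the highest without sham replicate 2. Genes with a permutation p under 0.05 ran from 0 to 1, with 0 without 72 h replicate 2 or any 10 min library. Without 72 h replicate 1 that gene was Myl2 (permutation p = 0.0422) in place of Mylk3. Against sham, the covered share of the 10 genes ran from -0.664 to 0.616 percentage points at 1 h, from -0.440 to 0.841 at 6 h and from -0.695 to 0.586 at 24 h. For 10 min it ran from -1.04 to 0.240 (-0.546 with all libraries) and for the pooled MI libraries from -0.419 to 0.862 (0.0755 with all). Each of these 5 changed sign, lowest without sham replicate 1 and highest without sham replicate 2.

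Without sham replicate 2 and 72 h replicate 2 together, chosen after seeing the data, the called regions numbered 2 for 10 min, 1 each for 1 h and 6 h, and 3 for 72 h, with 2 regions at an exact p under 0.05 and 4 gene and time pairs apart from sham. The covered share of the 10 genes then exceeded sham by 0.616 percentage points at 1 h, 0.841 at 6 h and 0.586 at 24 h. Deviations of same-numbered mice had a mean r of 0.00357 over 45 pairs, with 0 above 0.1, and those of other-numbered mice -0.00178. A step shared by mice of the same number was not tested, and such correlations of peak lists cannot decide it. With the replicate number as a block, 1 gene still had a permutation p under 0.05, Mylk3 at 0.0435. No tested member changed its side of 0.05, and region calls were not recomputed with this block. Of the 18 libraries, 9 correlated best with one of their own number, out of 45 same-numbered and 90 other-numbered pairs.

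Limits come from the peak threshold. Most member peaks scored under 70, near the lowest listed score of 50.0, so presence or absence at these genes often turns on small differences in a score, and read depth is unknown.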

Other observations

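Several member regions also lie over other genes. Region 1 of Myh6 reaches Cmtm5, regions 4 and 5 of Myh7b lie in Trpc4ap, and regions 1 and 3 of Myl4 overlap the noncoding genes Gm11665 and Gm11663, each with a peak in 1 to 3 of 18 libraries. A peak there cannot be assigned to either of the overlapping genes.

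Region 6 of Myom1, at chr17:71071346-71073051, was singled out after its values were seen. It had a peak in 3 of 3 libraries at 10 min, with scores of 52.05, 53.46 and 55.01, and in the sham group a peak only in replicate 2, at 78.04. It was the only member region of 10 min replicate 2 besides those of Myl4 and Myl7. It also had peaks in 6 h replicate 3, 24 h replicate 1 and 72 h replicates 1 and 2, scoring from 54.93 to 73.01, and its exact p over the 6 groups was 0.384.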
